A study of Mus musculus with 6 samples.

Results

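The transcripts of 10 transcription factor genes of the early eye were measured in heads of E8.5 mouse embryos that lack the H3K4 demethylase Jarid1b. They are Hesx1, Six3, Six6, Rax, Lhx2, Pax6, Otx2, Vax1, Vax2 and Mitf, chosen by name with earlier results of these data known. A gene was measured by an array row that the platform annotation pairs with its symbol alone, and by the brightest such row where there were several. All 10 genes had a row, out of 19938 genes measured on 21789 such rows (probe sets).

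RNA came from knockout heads, in which both Jarid1b alleles are deleted, and from heterozygote heads, which keep an intact allele and served as the controls. Each group had 3 samples (pools of 4 heads), all C57BL/6, untreated and taken at E8.5. The deletion was constitutive, made by crossing mice with a loxP-flanked Jarid1b exon to Cmv-cre mice, and it therefore affects every tissue of the embryo. Wild-type heads were not analysed here, so each difference is between the loss of both alleles and the loss of a single allele. The labels give neither the sex nor the number of somites of the embryos in a pool. Values are log2 of the intensity that RMA, a method that corrects, normalizes and summarizes the probes of an array, gave for each probe set, and a fold change is the knockout mean minus the heterozygote mean on that scale.

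The eye field is the region of the anterior neural plate from which both retinas form. Otx2 marks the forebrain and midbrain before the field arises, and Rax, Six3, Six6, Lhx2 and Pax6 then act together inside it as the optic vesicles grow out of the forebrain wall. Vax1 and Vax2 later set the optic stalk and the ventral retina apart, and Mitf directs the pigmented layer. Hesx1 is a homeodomain repressor of the anterior neural plate and of the pituitary primordium, and mice without it have small or absent eyes and pituitary defects. The arrays ask which genes differ in the head at the stage when the optic vesicles start to form.

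The promoter of Hesx1 is shown because this gene differed most between the groups, and a promoter of Otx2 because Otx2 belongs to the same homeodomain class and lay lower too. Both are the 250 bases before an annotated start, 5′ to 3′ on the strand of the gene, from RefSeq on GRCm38.p6. Capitals mark letters that fit TAATTA or TAATCC, or TAAT and ATTA with any 3 bases between them, searched on both strands. The first is a core that many homeodomain proteins bind, the second the form read by Otx proteins, and the third a pair of facing cores of the kind that homeodomain proteins of the paired class bind together. These motifs share letters, and a site may fit more than 1 of them.
Hesx1, plus strand, chr14:27000112-27000361: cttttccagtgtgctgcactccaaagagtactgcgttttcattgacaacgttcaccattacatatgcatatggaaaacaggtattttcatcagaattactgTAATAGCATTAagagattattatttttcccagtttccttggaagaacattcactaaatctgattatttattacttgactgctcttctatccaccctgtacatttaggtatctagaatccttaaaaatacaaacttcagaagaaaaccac
Otx2, minus strand, chr14:48665110-48665359: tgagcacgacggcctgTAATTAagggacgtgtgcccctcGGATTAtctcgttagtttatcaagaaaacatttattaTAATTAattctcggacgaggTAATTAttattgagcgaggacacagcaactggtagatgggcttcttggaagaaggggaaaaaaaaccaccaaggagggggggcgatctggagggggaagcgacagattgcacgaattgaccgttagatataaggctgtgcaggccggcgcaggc

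The Hesx1 window held a single pair of facing cores, which starts 149 bases before the annotated start. This arrangement was found in 0.463% of the 32851 promoter windows of the same length in the RefSeq table, and in no other window of a member. The printed Otx2 window held TAATTA 3 times and TAATCC, read on the opposite strand, once. Otx2 has other annotated starts. Their window at chr14:48667645-48667894 held a single TAATTA. Those at chr14:48662735-48662984 and chr14:48667509-48667758 held none of the marked motifs. TAATTA was found in 4.84% and TAATCC in 6.25% of all windows. In the 15 windows found for 8 of the members, TAATTA occurred in 3 and TAATCC in 2, and CACGTG, an E-box of the kind Mitf binds, in none, against 6.02% of all windows. The base composition of the printed windows differed. The Hesx1 window had a ratio of observed to expected CpG of 0.291 and 34.0% G and C, and the Otx2 window 1.03 and 48.4%. The medians over all windows were 0.374 and 52.4%. Rax and Vax2 have no promoter shown here. The matches are descriptions of these windows, and binding was not measured on the arrays.

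As a check of the labels, Jarid1b, listed as Kdm5b, had log2 intensities of 7.63, 7.47 and 7.71 in knockout pools 1, 2 and 3, against 9.17, 9.12 and 9.16 in heterozygote pools 1, 2 and 3. It fell by 1.55 on the log2 scale (standard error 0.07, limma adjusted p = 6.29e-04) and was the only probe set of 21789 to pass at an adjusted p under 0.05, that is 0.00459%, with 0% passing on the higher side, where 5.97% had an unadjusted p under 0.05. Fits on all probe sets leaned with brightness. The median log2 fold change was 0.06 in the 7263 dimmest probe sets, -0.04 in the 7263 brightest and -0.00037 in the 7263 between. The pools also held tissue beside neural ectoderm. Heart markers reached the 99.1 percentile of brightness. The summed linear intensity of the blood markers was 323, 1816 and 480 in knockout pools 1, 2 and 3. It was 343, 238 and 331 in heterozygote pools 1, 2 and 3. The yolk sac markers summed to 8087, 8117 and 3616 in knockout pools 1, 2 and 3. They summed to 8224, 6998 and 7941 in heterozygote pools 1, 2 and 3. Single pools stood out, knockout pool 2 for blood and knockout pool 3 for yolk sac. The 8 neural ectoderm markers lay between the 39.4 and the 92.0 percentile of brightness, and the 7 trunk and tail markers between the 2.17 percentile for Cdx4 and the 77.0 percentile for Meox1, with the others at or below the 38.2 percentile of Tbx6.

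Hesx1 showed the largest difference of the 10 genes, and it was lower in the knockout heads. Its log2 intensity was 7.45, 7.60 and 7.62 in knockout pools 1, 2 and 3, against 7.96, 7.96 and 7.92 in heterozygote pools 1, 2 and 3. The heterozygote pools lay close together, the knockout pools were more spread, with pool 1 lowest, and a gap of 0.31 separated the groups. Hesx1 averaged 7.55 ± 0.09 in knockout pools and 7.95 ± 0.02 in heterozygote pools (SD, n = 3 each). The log2 fold change was -0.39 (standard error 0.06, 95% confidence interval -0.54 to -0.25), which is 1.31-fold lower with an interval from 1.19-fold to 1.45-fold. Over all probe sets this did not pass (limma adjusted p = 0.356). By its unadjusted p of 2.79e-04, Hesx1 stood in place 9 among the 21789 probe sets, and by size it was decrease number 36.

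In pooled heads, fewer cells that express a gene and less RNA per cell cannot be told apart, and this applies to every difference below. Markers of tissues in or near the Hesx1 domain had the following values. Over all probe sets, 9.03% were lower and 8.03% higher in knockout pools without overlap between the groups, and in the 7263 brightest 16.8% were lower and 3.06% higher. The 8 surface ectoderm markers had 7 negative and 1 positive (Grhl3) log2 fold change, 3 of them (Cdh1, Esrp1 and Krt18) lower without overlap. Their summed linear intensity was 5982 to 6623 in knockout pools, lowest in knockout pool 3, and 7016 to 7235 in heterozygote pools. Krt8 and Krt18, at the 96.9 and 97.8 percentile of brightness, weigh most in this sum. The 8 neural ectoderm markers summed to 3409 to 3549 in knockout pools and 3285 to 3555 in heterozygote pools, with 2 (Fabp7 and Pou3f2) higher without overlap. The 8 measured markers of midbrain and hindbrain all had positive log2 fold changes, 4 of them (En2, Gbx2, Egr2 and Pax8) without overlap, and summed to 2312 to 2346 in knockout pools and 1974 to 2219 in heterozygote pools. The 7 markers of anterior visceral endoderm and prechordal plate summed to 1022 to 1238 in knockout pools and 1136 to 1268 in heterozygote pools. The part of these tissues in the difference of Hesx1 was not tested.

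**Figure D1:**
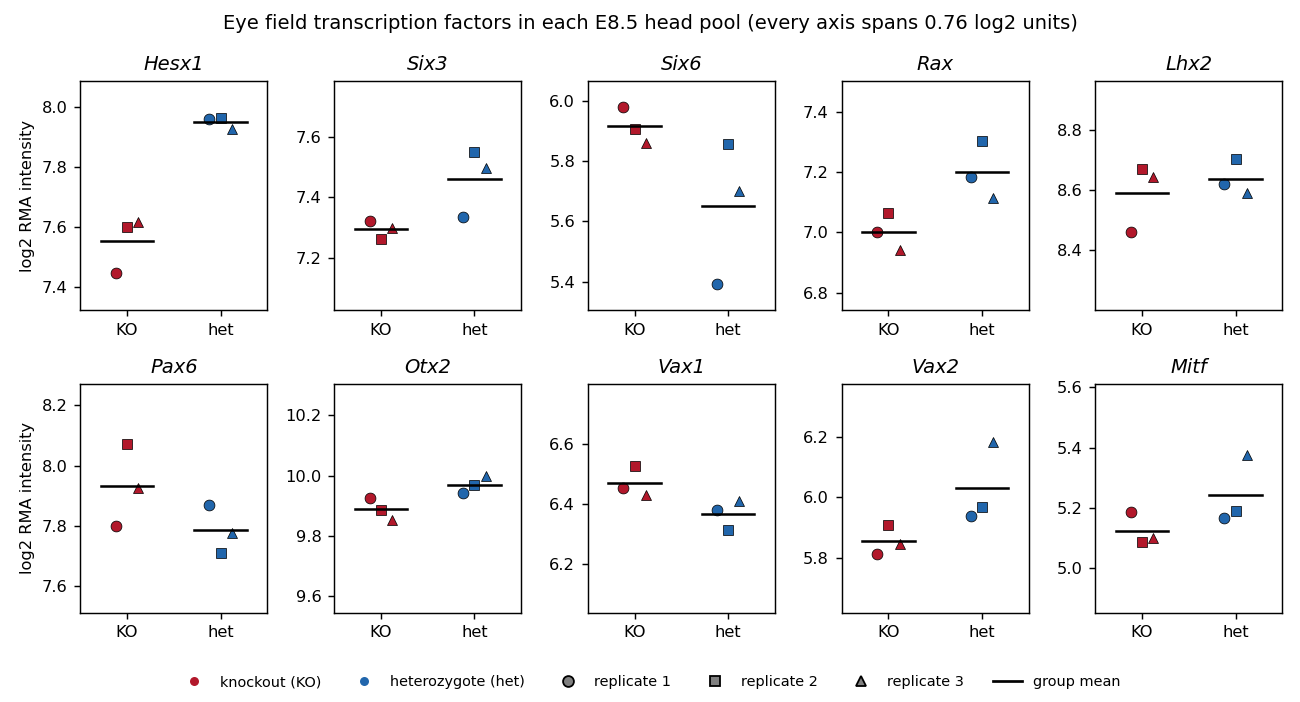
Log2 RMA intensity of the 10 genes in each pool, with knockout pools in red on the left, heterozygote pools in blue on the right, a symbol for each replicate and a black line at the group mean. The gap between the groups is widest for Hesx1, at 0.31, while the Lhx2, Pax6 and Mitf groups overlap.

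Among the genes that define the field itself, Rax and Six3 were lower in the knockout heads, Six6 was higher, and Lhx2 and Pax6 overlapped between the groups. Rax, a homeobox gene without which no optic vesicle forms, had log2 intensities of 7.0, 7.07 and 6.94 in knockout pools 1, 2 and 3, against 7.18, 7.30 and 7.11 in heterozygote pools 1, 2 and 3. The groups did not overlap, with a gap of 0.05. Knockouts differed from heterozygotes by -0.20 on the log2 scale (95% confidence interval -0.36 to -0.04, standard error 0.07, limma adjusted p = 0.413).

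Six3, a homeobox repressor of Wnt genes in the anterior forebrain, had log2 intensities of 7.32, 7.26 and 7.30 in knockout pools 1, 2 and 3, against 7.33, 7.55 and 7.50 in heterozygote pools 1, 2 and 3. The 3 knockout pools were close together, and heterozygote pool 1 lay only 0.012 above the highest of them. On the log2 scale the fold change was -0.17 (standard error 0.07, limma adjusted p = 0.457, 95% confidence interval -0.32 to -0.01). After quantile normalization it was -0.12 and the groups overlapped.

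Six6, a close relative of Six3 that keeps retinal progenitors dividing, ran the other way. It had log2 intensities of 5.98, 5.91 and 5.86 in knockout pools 1, 2 and 3, against 5.39, 5.86 and 5.70 in heterozygote pools 1, 2 and 3. The groups were separated by less than 0.01, and heterozygote pool 1 was far below the others. For Six6 the log2 fold change was 0.27 (standard error 0.11, limma adjusted p = 0.465, 95% confidence interval 0.0048 to 0.53), and 0.14 without heterozygote pool 1. After quantile and cyclic loess normalization it was 0.22 and 0.23, and the groups overlapped in both. The difference of Six6 and Six3 within a pool is a value whose size depends on the probes, so only its change between groups can be read. It was -1.38 ± 0.05 in knockout pools and -1.81 ± 0.13 in heterozygote pools (SD, n = 3 each), without overlap. The lack of overlap follows from Six6 being higher and Six3 lower, each without overlap. The pair was set side by side after its values were seen and is given as a description.

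Lhx2, a LIM homeobox gene needed for the optic vesicle to become an optic cup, had log2 intensities of 8.46, 8.67 and 8.65 in knockout pools 1, 2 and 3, against 8.62, 8.70 and 8.59 in heterozygote pools 1, 2 and 3. Only knockout pool 1 lay below the heterozygote pools. The fold change of Lhx2 was -0.05 on the log2 scale (standard error 0.07, limma adjusted p = 0.837), and its 95% confidence interval from -0.21 to 0.12 reaches a 1.16-fold decrease and a 1.09-fold increase. Without knockout pool 1 it was 0.02, and without heterozygote pool 2 it was -0.01. Without knockout pool 2 it was -0.09 and without knockout pool 3 -0.07.

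Pax6, the paired-box regulator of eye and neural development, had log2 intensities of 7.80, 8.07 and 7.93 in knockout pools 1, 2 and 3, against 7.87, 7.71 and 7.78 in heterozygote pools 1, 2 and 3. Knockout pool 2 was the highest and knockout pool 1 lay among the heterozygotes. A log2 fold change of 0.15 resulted (95% confidence interval -0.04 to 0.34, standard error 0.08, limma adjusted p = 0.556). The interval extends to a 1.26-fold increase. Without knockout pool 2 the fold change was 0.08, and without heterozygote pool 2 it was 0.11. Without knockout pool 1 it was 0.21 and without heterozygote pool 1 0.19. After quantile normalization it was 0.19, and after cyclic loess 0.18.

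**Figure D2:**
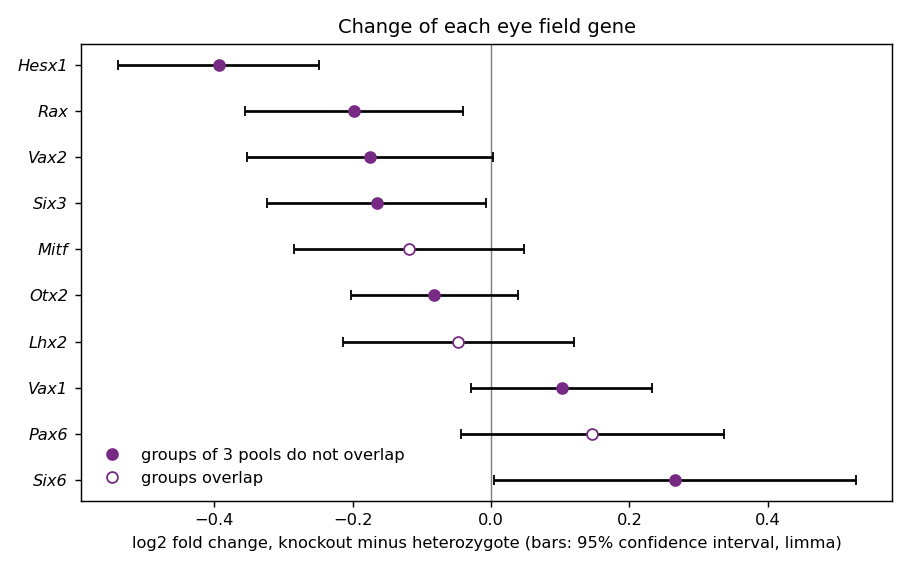
Knockout minus heterozygote log2 fold change for each of the 10 genes with its 95% confidence interval from limma, filled where the 3 knockout and 3 heterozygote pools do not overlap. Of the intervals, those of Hesx1, Rax and Six3 lie below 0 and that of Six6 above 0.

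Otx2, which is required for the forebrain and midbrain to form, had a small difference. It had log2 intensities of 9.93, 9.89 and 9.85 in knockout pools 1, 2 and 3, against 9.94, 9.97 and 9.998 in heterozygote pools 1, 2 and 3. Each knockout pool was lower than each heterozygote pool, with a gap of 0.02. Its log2 fold change was -0.08 (standard error 0.05, limma adjusted p = 0.600). Otx2 lies among the 7263 brightest probe sets, of which 16.8% were lower and 3.06% higher in the knockout pools without overlap, and Hesx1, Lhx2 and Pax6 lie there too. After cyclic loess normalization, which adjusts arrays to each other along the range of brightness, Otx2 was at -0.05 and its groups overlapped. The groups of Six6, a gene of middle brightness, overlapped too. Hesx1 was at -0.36 and Rax at -0.18 under this setting, without overlap. The part of the lean with brightness in any of these differences was not tested.

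The genes of the later optic stalk and ventral retina also split. Vax1, needed for the optic stalk and for closure of the optic fissure, had log2 intensities of 6.45, 6.52 and 6.43 in knockout pools 1, 2 and 3, against 6.38, 6.31 and 6.41 in heterozygote pools 1, 2 and 3. The knockout pools were higher by a gap of 0.02. On the log2 scale the fold change was 0.10 (standard error 0.06, limma adjusted p = 0.555, 95% confidence interval -0.03 to 0.23).

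Vax2, which acts in the ventral retina, had log2 intensities of 5.81, 5.91 and 5.85 in knockout pools 1, 2 and 3, against 5.94, 5.97 and 6.18 in heterozygote pools 1, 2 and 3. The knockout pools were lower by a gap of 0.03, and heterozygote pool 3 stood above the rest. For Vax2 the log2 fold change was -0.17 (standard error 0.08, limma adjusted p = 0.470, 95% confidence interval -0.35 to 0.0026), and -0.10 without heterozygote pool 3. The within-pool difference of Vax1 and Vax2, also set side by side after the values were seen and given as a description, was 0.61 ± 0.03 in knockout pools and 0.34 ± 0.11 in heterozygote pools (SD, n = 3 each).

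**Figure D3:**
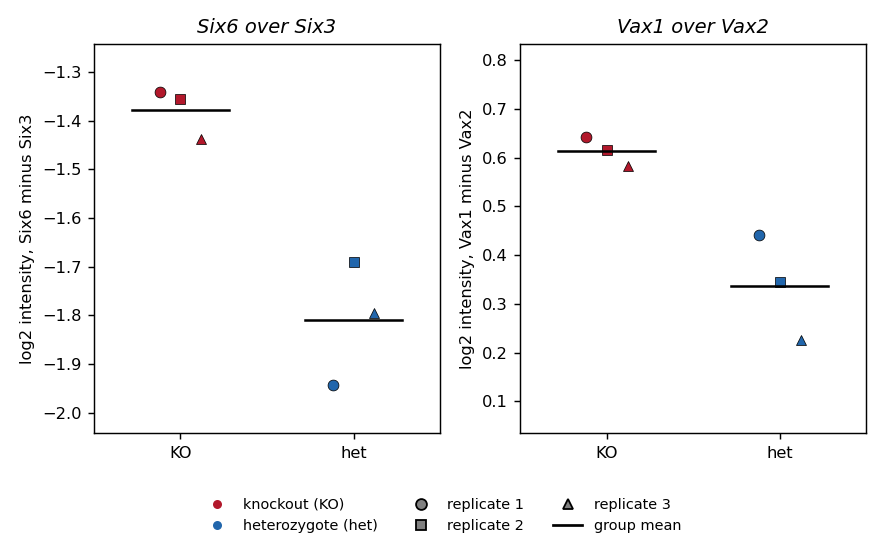
Difference in log2 intensity between Six6 and Six3 and between Vax1 and Vax2 in each pool, with knockout pools in red on the left, heterozygote pools in blue on the right and a black line at the group mean. Both differences are higher in each knockout pool, with means of -1.38 and 0.61, than in any heterozygote pool, with means of -1.81 and 0.34. This separation follows from the single genes, which differ in opposite directions without overlap.

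Mitf, the basic helix-loop-helix factor of the pigmented layer and of melanocytes, was the dimmest of the 10, at the 31.1 percentile of brightness. Its log2 intensity was 5.19, 5.09 and 5.10 in knockout pools 1, 2 and 3, against 5.17, 5.19 and 5.38 in heterozygote pools 1, 2 and 3. The groups overlapped, since knockout pool 1 lay above heterozygote pool 1. The log2 fold change was -0.12 (standard error 0.07, limma adjusted p = 0.582), and -0.05 without heterozygote pool 3. A second Mitf probe set, at the 0.597 percentile of brightness, was at -0.04 on the same scale, with a standard error of 0.06.

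As a group, 7 of the 10 genes had negative and 3 positive log2 fold changes, with a median of -0.10 against -0.00072 over all 21789 probe sets. The genes were chosen with earlier results of these data known, so their counts are descriptions. After adjustment in limma none of them passed the threshold of 0.05. By the unadjusted p under 0.05, 3 were lower (Hesx1, Rax and Six3) and 1 was higher (Six6), where 4.66% of all probe sets were lower and 5.97% higher. The 15 alternatives include leaving out each pool as well as other processing. Among them, Hesx1 stayed under this limit in 15, Rax lost the call in 2, Six3 in 9 and Six6 in 10. The limma unadjusted p-values reached 0.0751 for Rax, 0.145 for Six3 and 0.127 for Six6. Rax lost the call only with knockout pool 3 or heterozygote pool 2 left out. Vax2 came under the limit in 4, and Pax6 and Mitf in 1 each. Groups without overlap were seen on the lower side for 5 genes, Hesx1, Rax, Six3, Vax2 and Otx2, where 9.03% of all probe sets were so, and on the higher side for Six6 and Vax1, where 8.03% were so. Apart from Hesx1, the gaps were between less than 0.01 and 0.05. Among the 7263 probe sets of middle brightness, to which Six3, Six6, Rax, Vax1 and Vax2 belong, 8.22% were lower and 8.99% higher without overlap. Standard errors ranged from 0.05 for Otx2 to 0.11 for Six6, and the median over all probe sets was 0.07.

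The genes did not share a single order of the pools. Among the knockouts, pool 1 was lowest for Hesx1, Lhx2, Pax6 and Vax2, and highest for Six3, Six6, Otx2 and Mitf. Among the heterozygotes, pool 1 was lowest for Six3, Six6, Otx2, Vax2 and Mitf, and pool 3 was lowest for Hesx1, Rax and Lhx2. The medians of the 10 deviations from the group mean lay between -0.02 and 0.05 in the 6 pools. The SD was smaller in the knockout pools for 5 of the 10 genes, and smaller for 42.6% of all probe sets.

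The genes whose profile over the 6 arrays was nearest to that of Hesx1, by the root mean square difference of values centred on the gene's mean, were Olfr1095, Fbxo25, 0610038B21Rik, Zfp184 and Rab32. Their differences ran from 0.031 for Olfr1095 to 0.064 for Rab32, and their log2 fold changes from -0.36 for Rab32 to -0.33 for Fbxo25. Olfr1095, an olfactory receptor gene, was at the 0.909 percentile of brightness, and the others between the 48.1 and the 55.6 percentile. Of the eye genes, Rax came nearest, at 0.127 and place 328, followed by Vax2 at 0.146 and Six3 at 0.149, and Six6 was farthest, at 0.368.

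**Figure D4:**
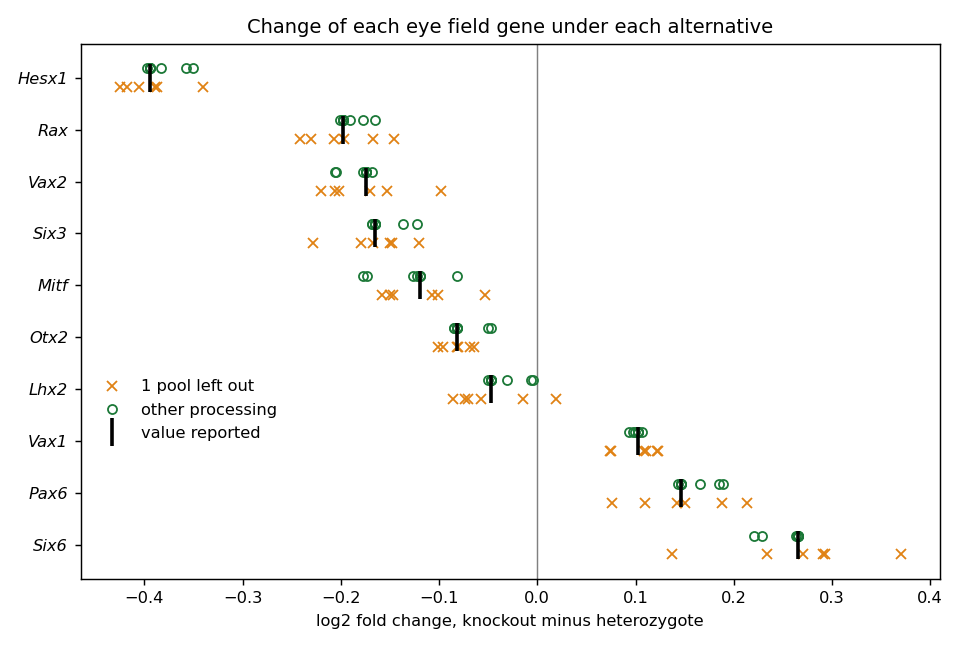
Knockout minus heterozygote log2 fold change for each of the 10 genes as reported (black bar), with each pool left out in turn (orange crosses) and under the other processing alternatives (green circles). Hesx1 stays between -0.42 and -0.34, and Lhx2 is the only gene of the 10 whose points cross 0, with a highest value of 0.02.

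Genes that work beside these factors were described as lists. Over 7 lists, 112 genes were measured, with a median log2 fold change of -0.00099. After adjustment over all probe sets none passed in limma. By the unadjusted p under 0.05, 10 genes were on the higher and 9 on the lower side. Of all probe sets, 5.97% were higher and 4.66% lower by this limit. Without overlap, 12 genes were on the higher and 13 on the lower side, where 8.03% of all probe sets were higher and 9.03% lower. The counts of each list below are to be read against the same shares, which differ with brightness. Of the 7263 dimmest probe sets, 874 were higher and 149 lower without overlap. By the unadjusted p under 0.05, 761 of these were higher and 114 lower. Of the genes named below as without overlap, Nr2e1, Dlx1, Tyrp1 and Oca2 on the higher side and Best1 on the lower side are this dim.

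Of the signals that pattern the anterior head, 22 were measured, with a median of 0.0049, 1 gene on the higher and 3 on the lower side by the unadjusted p. Cer1, a secreted antagonist of Nodal, BMP and Wnt signals made by anterior endoderm, had log2 intensities of 7.03, 6.05 and 6.25 in knockout pools 1, 2 and 3, against 7.18, 6.95 and 7.31 in heterozygote pools 1, 2 and 3. Knockout pool 1 lay among the heterozygotes, and the log2 fold change was -0.70 (standard error 0.23, limma adjusted p = 0.413). Fzd5, a Wnt receptor of the eye field, was at 7.27, 7.17 and 7.22 in knockout pools 1, 2 and 3, against 7.32, 7.48 and 7.50 in heterozygote pools 1, 2 and 3. The groups of Fzd5 did not overlap, and their log2 difference was -0.21 (standard error 0.07, limma adjusted p = 0.407). On the other side, the ligand Wnt11 had a log2 fold change of 0.18 (0.12 without heterozygote pool 1) and the Wnt antagonist Sfrp2 of 0.14. Both were higher without overlap, and the groups of Wnt11 overlapped after cyclic loess normalization.

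Of the genes of the optic cup and stalk, 17 of 20 were measured, with a median of 0.03, 2 higher and 1 lower by the same count. The orphan nuclear receptors Nr2f1 and Nr2e1, both of the forebrain and retina, were higher in each knockout pool than in any heterozygote pool, at log2 fold changes of 0.26 and 0.22. The T-box gene Tbx5 of the dorsal retina and heart was at -0.30 with overlap, and at -0.19 without knockout pool 1 and -0.20 without heterozygote pool 3. Mab21l2 of the optic vesicle was at -0.15, and at -0.08 without heterozygote pool 3. Of the forebrain territory, 15 of 16 were measured, with a median of 0.07, 2 higher and 1 lower. Fezf1, a zinc finger repressor of the anterior forebrain, was at -0.18 without overlap and Emx2 of the cortex at -0.12 with overlap. On the higher side, Dlx1 was at 0.23 without overlap and Zic1 at 0.21 with overlap. Emx2 was at -0.05 without heterozygote pool 2, and Dlx1 at 0.12 without heterozygote pool 1. The limma adjusted p-values of these 8 genes lay between 0.406 and 0.614.

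Of the corepressors that work with Hesx1 and the genes of the pituitary, 12 of 17 were measured, with a median of -0.02, 0 higher and 2 lower by the unadjusted p. Tle1, a Groucho corepressor that Hesx1 recruits, was lower in each knockout pool than in any heterozygote pool, at 7.58, 7.65 and 7.63 in knockout pools 1, 2 and 3, against 7.80, 7.74 and 7.75 in heterozygote pools 1, 2 and 3. Its log2 fold change was -0.15 (standard error 0.05, limma adjusted p = 0.417). Isl1, a LIM homeobox gene, was at -0.19 and also without overlap. On the higher side stood Tle2, a relative of Tle1, at 0.11 without overlap and the pituitary gene Tbx19 at 0.13 with overlap. The groups of Isl1 and Tle2 overlapped after quantile and cyclic loess normalization. Tbx19 was at 0.06 without knockout pool 3, at 0.08 without heterozygote pool 3, and at 0.07 after both quantile and cyclic loess normalization. Of the cofactors and partners of the 10 factors, 19 of 21 were measured, 14 with negative log2 fold changes and a median of -0.02, and 1 was higher and 0 lower by the unadjusted p. Sox1, a neural plate factor, was at 0.20 and Eya4 at 0.09, against -0.14 for Gmnn, which binds Six3 in medaka fish, and -0.09 for Ssbp3, a partner of LIM homeodomain complexes. The groups of Eya4 and of Gmnn did not overlap, and those of Sox1 and Ssbp3 did. Ssbp3 was at -0.05 without heterozygote pool 2 and after cyclic loess normalization, and at -0.06 after quantile normalization.

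All 16 genes of the pigment programme of Mitf were measured, with a median of 0.05, 2 higher and 1 lower by the unadjusted p. They lay between the 5.53 percentile of brightness for Rpe65 and the 98.0 percentile for Ttr. Ttr is also among the yolk sac markers above, and the next brightest gene was Kit, at the 73.5 percentile. Tyrp1 and Oca2, which act in melanin synthesis and lay at the 20.3 and the 16.2 percentile, were higher without overlap at log2 fold changes of 0.24 and 0.20. Best1 was lower without overlap at -0.14, and Rlbp1 was at -0.12 with overlap. Rlbp1 was at -0.20 and without overlap when knockout pool 1 was left out, at -0.07 without knockout pool 3, and at -0.19 after quantile normalization. The mean log2 intensity of Tyrp1 was 4.60 in knockout pools and 4.36 in heterozygote pools, and the 7263 dimmest probe sets, to which it belongs, leaned higher in knockouts as given above. Of the lens placode, 11 of 12 were measured, with a median of -0.09, and again 2 were higher and 1 lower. Fgfr2, an FGF receptor that lens induction needs, was at -0.15 and Tfap2a of the surface ectoderm at -0.14, both without overlap. On the higher side, the crystallin gene Cryaa was at 0.18 with overlap and Pitx3 at 0.15 without overlap. The summed linear intensity of the lens list was 3248 to 3429 in knockout pools and 3426 to 3583 in heterozygote pools, and these ranges overlap only at their edge. Cryab, Bmpr1a and Tfap2a, at the 87.9, 86.6 and 84.9 percentile of brightness, weigh most in this sum. They lie among the 7263 brightest probe sets, of which 16.8% were lower without overlap. Over the list, 4 log2 fold changes were positive and 7 negative.

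**Figure D5:**
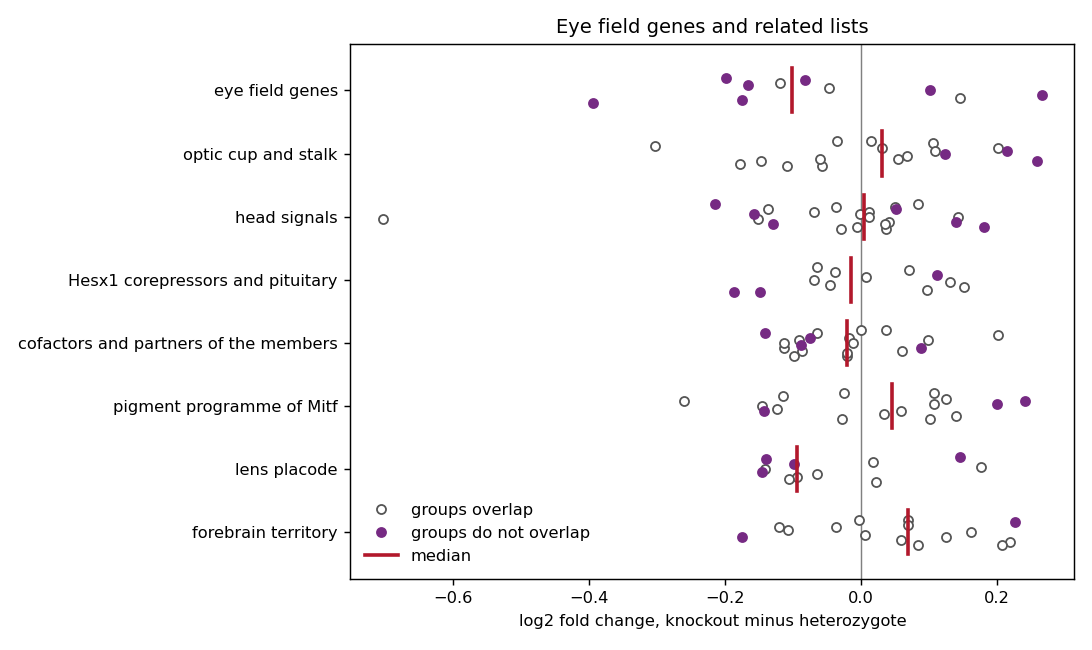
Log2 fold change, knockout minus heterozygote, of the 10 eye field genes and of each measured gene of 7 related lists, with purple points where the 3 knockout and 3 heterozygote pools do not overlap and a red line at each median. The median is -0.10 for the eye field genes, and those of the lists lie between -0.09 for the lens placode and 0.07 for the forebrain territory.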

How the data were processed

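RNA from 3 pools of 4 heads for each genotype, taken at E8.5, was hybridized to Gene ST arrays for mouse from Affymetrix. The deposited values are RMA intensity, which the authors computed with Affymetrix Power Tools. Its version and a genome build are not given in the sources used here. Intensities ran from 2.53 to 11741 and were read as linear, and log2 was taken. Of 35556 rows, the 21789 with exactly 1 gene symbol were tested. Symbols were updated by gene number to RefSeq on GRCm38.p6 for 21698 of them. Groups come from the sample titles.

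The 2 genotypes were set against each other with limma 3.58.1 in R 4.3.3 (lmFit and eBayes, no covariate), with Benjamini-Hochberg adjustment over all tested probe sets. The scripts were tested on simulated data. Precision is limited by the number of arrays. The p-values rest on the spread between the pools, which the methods call biological replicates. With 3 against 3, an exact permutation test cannot go below 0.1, so none is used for a statement. The 10 genes, the lists and the markers were chosen with earlier results of these data known. Named beside the 10 genes and Kdm5b were, for each list, the 2 smallest unadjusted p-values in each direction, and the 5 genes nearest to Hesx1. Uty, the pairs of related genes, the printed promoters and the marker genes given by name were chosen after their values were seen. So were the listed genes named only for their brightness. Listed genes with no such row were not analysed here. Alternatives were a filter on dim probe sets, all rows, means per gene, other normalizations and variance models, array weights, the replicate number as a block, and leaving out each pool.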

Additional observations from a re-analysis of the deposited data

How the results depend on the processing

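Under 15 alternatives (14 for Mitf), no eye field gene had a limma adjusted p under 0.05, and the direction of 9 held in each. Lhx2 reversed without knockout pool 1, and its values ran from -0.086 to 0.019 with a pool left out. Hesx1 lay between -0.42 and -0.34, with limma adjusted p-values from 0.180 to 0.617. Its groups did not overlap after median centring, quantile or cyclic loess normalization, the alternatives that change its values. The others keep its values or leave out a pool, which cannot make separated groups overlap. The groups of Otx2 and Six6 overlapped after quantile and cyclic loess normalization, where Otx2 was at -0.05 in both, and those of Six3 after quantile normalization. The groups of Mitf did not overlap after quantile normalization, where it was at -0.18, or cyclic loess, where it was at -0.17. Lhx2 was at -0.0061 after quantile and -0.0048 after cyclic loess normalization, and at -0.03 with array weights. The groups of Pax6, which overlapped as reported, did not overlap under 2 alternatives. These left out knockout pool 1 or heterozygote pool 1, the pools that overlap, and no other alternative separated the groups. The causes were not tested.

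Counts over all probe sets moved more. The filter on dim probe sets and the use of all rows also change the number tested. By the unadjusted p under 0.05, 1301 were on the higher side and 1016 on the lower as reported, 650 and 1131 without the 7263 dimmest, and 1055 and 1391 with trend and robust variances. The lower count was 619 to 1077 with a pool left out. Without overlap, 1749 were higher and 1968 lower as reported. The higher count was 875 without the 7263 dimmest and 2884 over all 35556 rows, against 1749 of 21789 as reported. The totals differ, so these counts cannot be compared as shares. With a pool left out, when fewer values must be ordered, 2697 to 3243 were higher and 2770 to 3486 lower. At an adjusted p under 0.05, 0 to 1 were higher with a pool left out, the 1 being the Y-linked Uty without heterozygote pool 2. The count at an unadjusted p under 0.05 on that side was 1184 there.

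Of the list medians, that of the optic cup and stalk was -0.046 without dim probe sets, that of the Hesx1 corepressors and pituitary 0.016 after quantile and after cyclic loess normalization, and that of the lens placode -0.056 after cyclic loess. With a pool left out, the medians ran from -0.074 to 0.044 for head signals, from -0.036 to 0.027 for corepressors and pituitary, from -0.069 to -0.017 for cofactors and partners, from -0.13 to -0.055 for the lens placode and from 0.020 to 0.089 for the forebrain territory.

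With the replicate number as a block, Hesx1 kept a log2 fold change of -0.39 (limma adjusted p = 0.469), and no call by the adjusted p changed. By the unadjusted p under 0.05, Six3 and Six6 lost their calls among the 10 genes, as did Tle1, Best1 and Pitx3 among the listed genes named, and 1320 probe sets were on the higher and 861 on the lower side by the unadjusted p. The numbers were not taken as pairs, since same-numbered pools had correlations of their deviations of 0.00076, 0.106 and -0.013, and only pools 2 correlated best with each other.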
